A study of Rattus norvegicus with 24 samples.

Results

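Of 26404 Ensembl gene IDs counted in the livers of female rats, 33 met a rule for a fall at 10 µg/kg of TCDD and not at 3 µg/kg. They are described here over all 8 dose groups. An ID was a member when its vehicle mean lay from 5 to below 1000 CPM (each count scaled by its library's total of gene counts), its mean at 3 µg/kg was above 0.75 times the vehicle mean, its mean at 10 µg/kg was at most 0.5 times the vehicle mean, and each 10 µg/kg library lay below every vehicle and every 3 µg/kg library. The vehicle, 3 µg/kg and 10 µg/kg libraries therefore chose the members, and what these libraries show of them is a description. The 15 libraries of the 5 doses from 0.01 to 1 µg/kg played no part in the choice. Tests independent of the rule use these libraries alone; any comparison with vehicle, 3 µg/kg or 10 µg/kg libraries is not independent of it.

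TCDD (2,3,7,8-tetrachlorodibenzo-p-dioxin) is a persistent chlorinated dioxin that binds the aryl hydrocarbon receptor, a ligand-activated transcription factor. With its partner ARNT the bound receptor occupies dioxin response elements and raises the transcription of xenobiotic-metabolising enzymes. Many other liver genes fall under TCDD, including genes of intermediary metabolism, and such falls need not involve receptor binding at the gene itself.

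The animals were Sprague-Dawley rats, an outbred stock, labelled 57 days of age. Each of the 8 groups held 3 rats, described by the series as biological replicates. The control group was gavaged with sesame oil alone, and each other group with TCDD: 0.01 or 0.03 µg/kg as the lowest doses, then 0.1 or 0.3 µg/kg, then 1 or 3 µg/kg, and 10 µg/kg as the highest, every 4 days for 28 days. Whole liver was sequenced as bulk RNA, so that fewer cells of a type and less RNA per cell cannot be told apart.

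Gene counts ranged from 11816273 to 15804887 per library, and 3 counts, taken as the detection floor, were worth 0.190 to 0.254 CPM. None of the 26404 IDs matched a gene symbol in the reference table used here. Pathway lists and markers of hepatocytes and other liver cells could not be applied, so the tissue label was not checked and a change of cell composition was not tested. For the same reason only 2 IDs are named, the member with the lowest ratio of 10 µg/kg to vehicle and the member with the highest vehicle mean. Other members are identified by their rank in vehicle level. Reads aligned to several places are left out of gene counts. Alignments that were not unique had a mean share of a table of 32.0% at 10 µg/kg and 22.1% to 24.3% in the other groups. Their part in the falls at 10 µg/kg was not tested.

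The members spanned most of the permitted range of expression. Vehicle means ran from 5.27 to 917 CPM with a median of 21.9 CPM. Below 10 CPM lay 10 members, 15 lay from 10 to below 100 CPM, and 8 at 100 CPM or more. Together the 33 members took 0.317% ± 0.0802 of gene counts in vehicle (SD, n = 3). This share was 0.284% ± 0.0220 in the 3 µg/kg group, and in the 10 µg/kg group it was 0.117% ± 0.0314. The share at the doses between is given further on.

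At 10 µg/kg the members stood at 0.0296 to 0.499 times vehicle, with a median of 0.369. Most of the falls were moderate: 18 members were at or below 0.4 times vehicle and 4 at or below 0.25 times. Those 4 ranked 16, 27, 32 and 33 by vehicle level. Rank 16 held 58.5, 6.88 and 6.66 CPM in vehicle and rank 27 held 14.8, 3.99 and 3.37 CPM. In each, 1 vehicle library lay far above the others. Ranks 27, 32 and 33 had vehicle means of 7.39, 5.41 and 5.27 CPM, near the lower limit of 5 CPM. Over all 33 members the ratio of 10 to 3 µg/kg had a median of 0.428 and ran from 0.0137 to 0.619. At 3 µg/kg the ratio to vehicle had a median of 0.896, and 26 of the 33 means lay below the vehicle mean. The group was thus not centred on the vehicle level at 3 µg/kg: 17 members lay at or below 0.9 times vehicle. The plot of both ratios shows the members as a strip just right of the limit at 3 µg/kg, with 1 point far below the others.

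**Figure D1:**
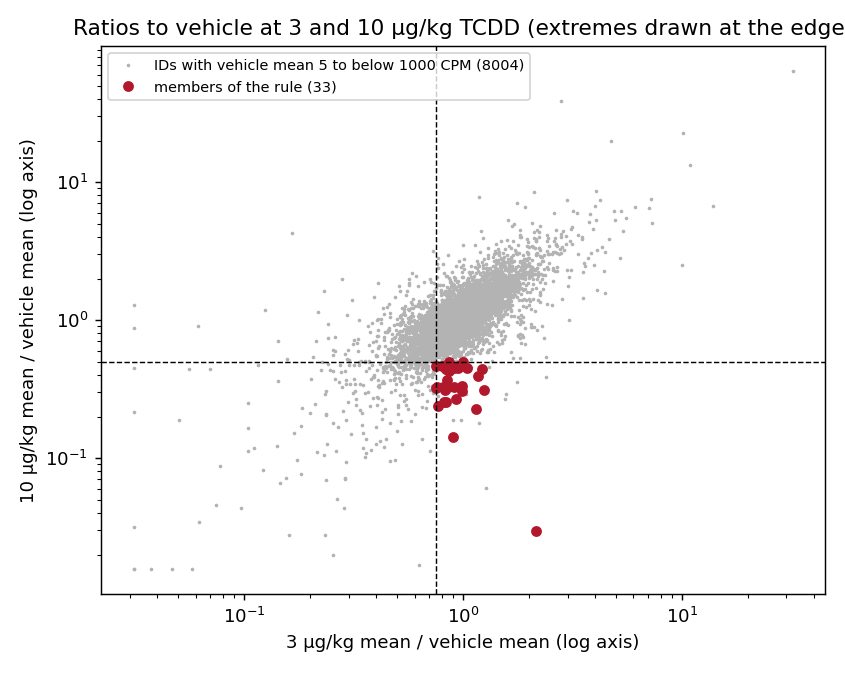
Each point is 1 of the 8004 IDs with a vehicle mean from 5 to below 1000 CPM; the horizontal axis is the mean at 3 µg/kg divided by the vehicle mean and the vertical axis the mean at 10 µg/kg divided by the vehicle mean, both on log axes with extreme or zero ratios drawn at the edge. Dashed lines mark ratios of 0.75 and 0.5, and the 33 members (red) lie between 0.753 and 2.16 at 3 µg/kg and between 0.0296 and 0.499 at 10 µg/kg; grey points in the same corner failed the separation of libraries.

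The limits of the rule cut through a continuous range. The member closest to the 2-fold limit stood at 0.499 times vehicle at 10 µg/kg, and the nearest ID outside at 0.507. At 3 µg/kg the member closest to the limit stood at 0.753 times vehicle and the nearest ID outside at 0.748. The lowest vehicle or 3 µg/kg library exceeded the highest 10 µg/kg library 1.004-fold in the tightest member, and was 0.993 times it in the nearest ID outside. The lowest vehicle mean among members was 5.27 CPM, against 4.24 CPM in the nearest ID outside. There were 184 IDs that missed the 2-fold limit alone, 98 that missed the 3 µg/kg limit alone and 20 that missed the separation alone.

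All 33 members were among the 12496 genes tested with edgeR. In the 10 µg/kg comparison with vehicle 31 were called lower (adjusted p below 0.05), where 13.5% of all genes tested were called lower. In the comparison of 10 with 3 µg/kg 24 were called lower, against 2.83% of all genes. The rule used both contrasts, so nothing is read from these counts. The members not called against vehicle were those ranked 16 and 17 by vehicle level. The count for 10 against 3 µg/kg depended on single libraries: it was 13 with replicate 2 of the 3 µg/kg group left out, 15 with replicate 3 of that group, 10 with replicate 2 of the 10 µg/kg group and 8 with replicate 3 of that group.

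The scale of the CPM values bears on who is a member. Without scaling factors, the median of all genes tested lay 0.156 above vehicle on the log2 scale at 10 µg/kg; with TMM factors (a trimmed mean of log ratios that sets the typical gene to no change) it lay at -0.017. Relative to that typical gene the members fell further, with a median ratio of 0.328 by TMM against 0.369 by plain CPM. All 33 members met the rule under TMM or RLE scaling as well, but the rule then took in 64 or 61 IDs. Without 10 µg/kg replicate 1 the plain rule took 78 IDs, of which 32 were members.

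ENSRNOG00000000158 had the highest vehicle level of the members. Its 3 vehicle libraries held 1255, 806 and 691 CPM. The 3 µg/kg libraries held 786, 779 and 761 CPM, within the vehicle range. The 10 µg/kg libraries held 424, 320 and 271 CPM, all below every library of the 7 other groups, whose lowest value was 678 CPM at 1 µg/kg.

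At the doses between, the same ID averaged 954 ± 254, 1194 ± 75.4, 997 ± 310, 1116 ± 375 and 758 ± 70.3 CPM in order of dose from 0.01 to 1 µg/kg (SD, n = 3 each). Neighbouring doses overlapped. The highest library at 1 µg/kg, 809 CPM, lay below the lowest at 0.03 µg/kg, 1123 CPM. It lay above the lowest at 0.01, 0.1 and 0.3 µg/kg, which held 787, 747 and 688 CPM. The slope over 0.01 to 1 µg/kg was -0.069 per dose step (SE 0.068, edgeR adjusted p = 0.638). The fall at 10 µg/kg against vehicle was -1.61 on the log2 scale (SE 0.283) and that against 3 µg/kg -1.39 (SE 0.282), both from contrasts the rule used. At 1 µg/kg against the lowest 2 doses, which the rule did not use, the log2 difference was -0.45 (SE 0.250, edgeR adjusted p = 0.389).

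ENSRNOG00000027024 had the lowest ratio of 10 µg/kg to vehicle. It held 7.59, 6.88 and 1.77 CPM in vehicle and 11.2, 16.8 and 7.04 CPM at 3 µg/kg. At 10 µg/kg it held 4, 3 and 0 counts, or 0.291, 0.190 and 0 CPM. Summed over the 3 libraries, 7 counts at 10 µg/kg against 213 in vehicle gave a level 35.1-fold lower, with an exact 95% interval of 16.8 to 88.5 that covers counting error only.

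Between these groups this ID was higher and very uneven. In order of dose from 0.01 to 1 µg/kg its means were 18.8 ± 15.5, 23.4 ± 17.5, 18.3 ± 8.15, 31.6 ± 25.2 and 16.0 ± 23.4 CPM (SD, n = 3 each). All 5 means lay above the vehicle mean of 5.41 ± 3.18 CPM, yet a library with under 3 CPM occurred at 0.01, 0.3 and 1 µg/kg. The lowest of these, 0.469 CPM at 1 µg/kg, rested on 6 counts and was near the 10 µg/kg level. The fitted fall at 10 µg/kg against vehicle, the contrast that chose this ID, was -5.20 on the log2 scale (SE 1.81), and -4.65 to -5.84 with 1 vehicle or 10 µg/kg library left out. This ID had an edgeR adjusted p of 0.0363 with all libraries in, and of 0.0306 to 0.11 with 1 left out. Of the fits with 1 left out, only that without vehicle replicate 3 gave an adjusted p below 0.05. Its largest difference from vehicle below 10 µg/kg, 2.48 on the log2 scale at 0.3 µg/kg (SE 1.11), had an edgeR adjusted p of 0.289.

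**Figure D2:**
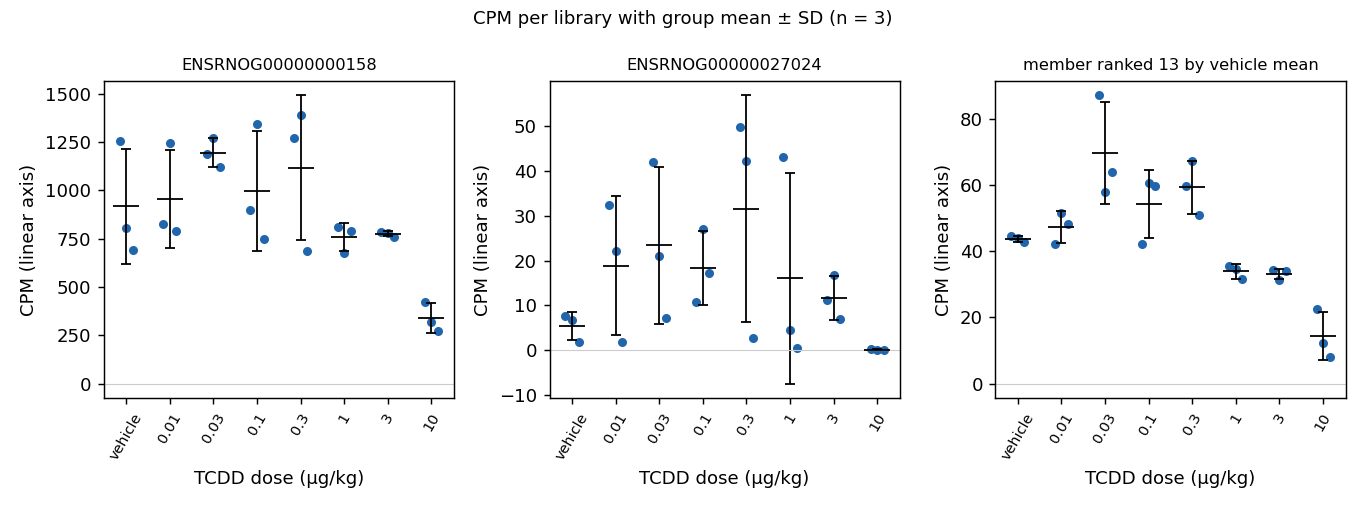
CPM (vertical, linear axis) in each of the 24 libraries by dose (horizontal) for the member with the highest vehicle level, the member with the lowest ratio of 10 µg/kg to vehicle, and the member ranked 13; blue points are libraries, drawn in the order of replicates 1 to 3, and black marks are group means ± SD (n = 3; an SD larger than its mean reaches below 0). The 10 µg/kg libraries are the lowest of all 24 in each panel, and the middle panel shows libraries under 3 CPM at 0.01, 0.3 and 1 µg/kg beside libraries above 30 CPM.

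Below 3 µg/kg the members did not share a single course. At 0.01, 0.03, 0.1 and 0.3 µg/kg the median ratio to vehicle was 1.11, 1.16, 1.11 and 1.15, and 23, 25, 25 and 22 of the 33 means lay above vehicle. At 1 µg/kg the median ratio was 0.866, and 24 means lay below vehicle. By group means the median thus changed side between 0.3 and 1 µg/kg, but single libraries were uneven. The members' summed share of gene counts at 1 µg/kg was 0.338%, 0.236% and 0.237% in replicates 1 to 3. Replicate 3 held 0.279% at 0.1 µg/kg and 0.283% at 0.3 µg/kg, both below replicate 1 at 1 µg/kg. All these ratios share the vehicle libraries that entered the rule. The median ratio over the 8004 IDs of the same range of vehicle level stayed between 0.955 and 1.04 in every dose group. Over the members the single ratios were wide, from 0.229 to 4.31 at 0.03 µg/kg and from 0.584 to 2.96 at 1 µg/kg.

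The members' summed share of gene counts followed the same course. In order of dose it was 0.365% ± 0.0390, 0.406% ± 0.0556, 0.371% ± 0.0796 and 0.372% ± 0.0788 from 0.01 to 0.3 µg/kg, and 0.270% ± 0.0587 at 1 µg/kg (SD, n = 3 each). Apart from 10 µg/kg, all dose groups had ranges that overlapped that of vehicle, 0.270% to 0.409%. At 10 µg/kg the highest library, 0.150%, lay below the lowest of the other 21, 0.236%. Against the vehicle and 3 µg/kg libraries this gap follows from the rule. The sum gives most weight to abundant members: ENSRNOG00000000158 had a vehicle mean of 917 CPM, against a member median of 21.9 CPM.

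**Figure D3:**
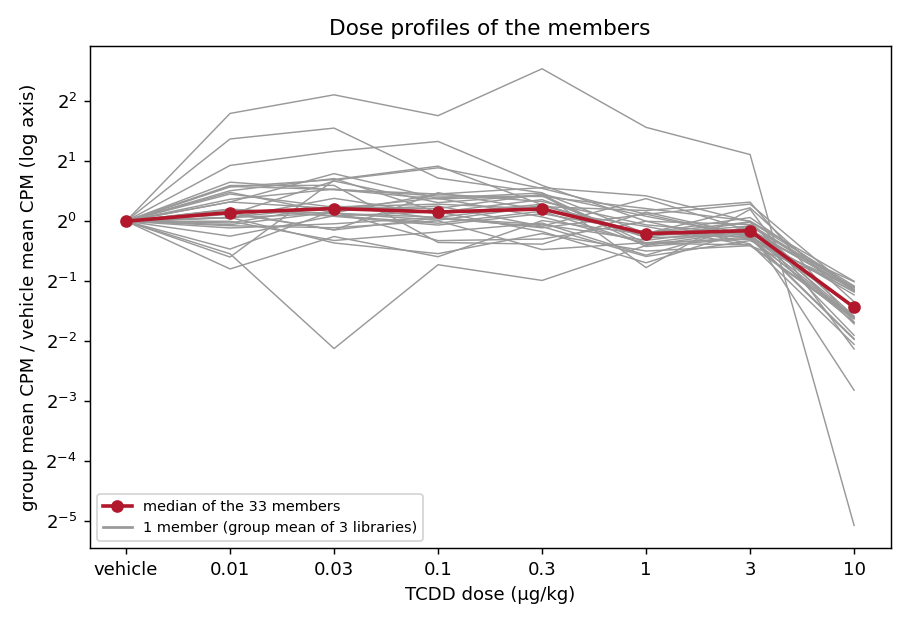
Group mean CPM divided by the vehicle mean (vertical, log axis) against dose (horizontal) for each of the 33 members (grey) and their median (red). The median runs from 1.11 to 1.16 up to 0.3 µg/kg, then to 0.866, 0.896 and 0.369 in the last 3 groups.

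The highest group mean of a member was most often at a low dose of TCDD. In order of dose from 0.01 to 0.3 µg/kg this was the top group of 8, 9, 7 and 4 members. Vehicle was the top group of 2, 1 µg/kg of 2 and 3 µg/kg of 1. The rule kept 10 µg/kg from being the top group. The top group was not counted over the 8004 IDs of the same range, so nothing is read from these counts. At 1 or more of the 5 doses from 0.01 to 1 µg/kg, 10 of the 33 members (and 10.9% of the 8004 IDs) reached at least 1.5 times vehicle. In the other direction 11 members (and 16.3% of those IDs) were at or below 0.75 times vehicle at 1 or more of these doses.

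None of these departures passed the test against vehicle in a single member. With edgeR, 0 of the 33 were called at any of the 6 doses from 0.01 to 3 µg/kg, and DESeq2 also called 0 at each. Over all genes tested, edgeR called 0.008%, 0.016%, 0.92%, 2.06%, 2.11% and 13.3% in order of dose. Unadjusted p below 0.05 was found for 0, 3, 3, 1, 1 and 0 members, against 8.29%, 7.46%, 13.1%, 15%, 17.1% and 27% of all genes. These comparisons share the vehicle libraries that entered the rule. At 3 µg/kg the rule itself barred means at or below 0.75 times vehicle, but set no upper limit. Without 3 µg/kg replicate 3, 1 member was called there.

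The 15 libraries from 0.01 to 1 µg/kg gave a comparison free of the rule. At 1 µg/kg against the mean of 0.01 and 0.03 µg/kg, 27 of the 33 members had a log2 fold change below 0, as did 50.6% of all 12496 genes. The median was -0.31 over the members and -0.0048 over all genes. Only 1 member was called, as lower (edgeR), where 0.408% of all genes were called lower. Unadjusted p below 0.05 was found for 8 members, all lower, against 7.21% of all genes lower. Within groups the members moved together over these 15 libraries (median Pearson r 0.307 over pairs, against 0.0838 over the 8004 IDs). Counts of members here and for the slope below are therefore not counts of separate observations. The members' summed share at 1 µg/kg was also uneven, at 0.338%, 0.236% and 0.237% in replicates 1 to 3.

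The called member ranked 13 by vehicle level. Its libraries at 0.01 µg/kg held 42.1, 51.5 and 48.2 CPM. Those at 0.03 µg/kg held 87.0, 57.7 and 63.8 CPM. At 1 µg/kg it held 35.4, 34.7 and 31.4 CPM, below all 6 of those libraries. The log2 fold change was -0.70 (SE 0.145, edgeR adjusted p = 0.0239). The count was 0 without 1 µg/kg replicate 2, without 1 µg/kg replicate 3, and in a fit of all 24 libraries, and it was 4 without 1 µg/kg replicate 1 and 4 in a fit blocked on replicate number. At 3 µg/kg this member held 34.2, 31.4 and 33.9 CPM, all below the vehicle range of 42.7 to 44.4 CPM, and at 10 µg/kg 22.5, 12.4 and 8.16 CPM.

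**Figure D4:**
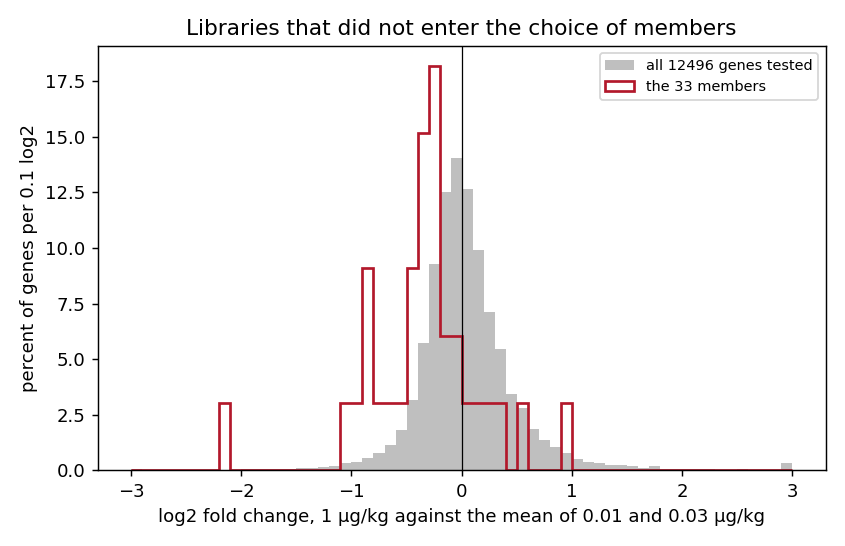
Percent of genes (vertical) in bins of 0.1 of the log2 fold change at 1 µg/kg against the mean of 0.01 and 0.03 µg/kg (horizontal, values beyond 3 drawn at the edge), for all 12496 genes tested (grey) and the 33 members (red outline). The members' median is -0.31 and that of all genes -0.0048.

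A slope on the rank of the dose over the same 5 groups gave 26 members below 0, against 51.3% of all genes, with a median of -0.069 per dose step. With edgeR 0 members were called, where 1.79% of all genes were called. DESeq2 called 0 and a fit blocked on replicate number called 1. An unadjusted p below 0.05 was found for 6 members, all falling, against 8.29% of all genes falling. The F test over the 5 groups likewise called 0 members (0.448% of all genes), with 3 at an unadjusted p below 0.05 against 10.6% of all genes, and DESeq2 called 1. A miss of the threshold does not show that these levels were alike.

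For comparison, 98 IDs met every condition of the rule except that they were already at or below 0.75 times vehicle at 3 µg/kg. At 1 µg/kg against the lowest 2 doses 93 of these 98 had a log2 fold change below 0, with a median of -0.47, and 13 were called lower (edgeR). Their slope over 0.01 to 1 µg/kg was called falling in 6. The corresponding counts among the 33 members, a smaller set, were 1 and 0. At 1 µg/kg against the lowest 2 doses 27 of the 33 were below 0, with a median of -0.31. Over all genes tested 0.408% were called lower there, and 1.79% had a slope called in either direction. The difference between the sets was not tested.

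The separation of 10 µg/kg from the libraries that did not choose the members was incomplete. In 22 of the 33 members each 10 µg/kg library lay below all 15 libraries from 0.01 to 1 µg/kg, as in 5.40% of the 8004 IDs of the same range. The rule had already required those 10 µg/kg libraries to be low, so nothing is read from this count. In 4 members 1 of those 15 libraries was at or below the highest 10 µg/kg library, and in 7 more than 1 was, up to 5. The 10 µg/kg mean was the lowest of the 8 group means in all 33, and in 18.6% of the 8004 IDs. It was at most 0.5 times the lowest other group mean in 19 members, and had a median of 0.475 times that mean. The rule had already held the members' 10 µg/kg mean to at most 0.5 times the vehicle mean. These values are thus a description, and nothing is read from them or from the comparison with the 8004 IDs.

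The member with the lowest vehicle level, ranked 33, was the one with 5 such libraries. Its vehicle libraries held 6.60, 5.25 and 3.96 CPM, and those given 10 µg/kg held 1.53, 0.506 and 0.202 CPM. At 0.03 µg/kg it already held 2.28, 0.444 and 0.897 CPM, all below the vehicle libraries, without being called (edgeR adjusted p = 0.508 for a log2 difference of -2.22, SE 0.773). The fitted difference for 3 µg/kg against vehicle was -0.13 (SE 0.692). Low levels of this member were thus found at low doses as well, with 32, 7 and 12 counts in the 0.03 µg/kg libraries.

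The member ranked 16 was the most uneven within vehicle, with a coefficient of variation of 124%. It held 58.5, 6.88 and 6.66 CPM in vehicle and 6.25, 4.43 and 5.73 CPM at 10 µg/kg. In the groups given 0.01, 0.1 and 0.3 µg/kg its replicate 3 library held 9.19, 8.28 and 6.77 CPM, while the other libraries of these groups held 39.5 to 109 CPM. At 1 µg/kg replicates 2 and 3 held 7.10 and 4.77 CPM. Levels under 10 CPM thus occurred in 2 of the 3 libraries of vehicle and of 1 µg/kg, and in 1 of the 3 at 0.01, 0.1 and 0.3 µg/kg.

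The members varied more within groups than other IDs of the same range. At the 5 doses from 0.01 to 1 µg/kg the median coefficient of variation over members lay between 21.8% and 29.6%. Over the 8004 IDs it lay between 12.1% and 15.0% at these doses. In the vehicle, 3 µg/kg and 10 µg/kg groups, which chose the members, it was 23.4%, 22.0% and 30.3% over members. Over the IDs it was 14.1%, 15.6% and 11.5% there. In vehicle the members' median level was close to that of the range, 21.9 against 20.8 CPM. At 10 µg/kg the rule held the members lower. The difference in variation was not tested.

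Within groups the members also moved together. Over the 15 libraries from 0.01 to 1 µg/kg, the deviations of log2(CPM + 0.5) from the group mean gave a median Pearson r of 0.307 over the 528 pairs of members, with quartiles of 0.0289 and 0.571. The median over all pairs of the 8004 IDs was 0.0838, with quartiles of -0.209 and 0.363. All pairs share the same libraries and depths, so these values describe the libraries.

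The library numbered 3 was the low one for most members. At the 5 doses from 0.01 to 1 µg/kg it was the lowest of its group in 23, 21, 24, 23 and 16 of the 33 members, which is 64.8% of the 165 combinations of member and dose. Over the 8004 IDs the library numbered 3 was the lowest in 25.7% on average. At 10 µg/kg replicate 3 was the lowest in 24 members, and in 33.1% of the 8004 IDs. Replicate 1 was the highest there in 23 members, a count not made over those IDs. At 3 µg/kg replicate 3 was the lowest in 7 members (14.6% of the IDs), and in vehicle in 17 (28.6%). The vehicle, 3 µg/kg and 10 µg/kg libraries chose the members, so their counts are a description. The labels give no batch, and the part of this pattern in the falls was not tested. Without replicate 3 in every group, 28 of the 33 members were called lower at 10 µg/kg against vehicle (edgeR; 7.53% of all genes), and 8 against 3 µg/kg (0.24% of all genes). The rule used these contrasts with all libraries in, so these counts are a description and no check on the pattern. The rule then took 30 IDs, of which 16 were members.

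**Figure D5:**
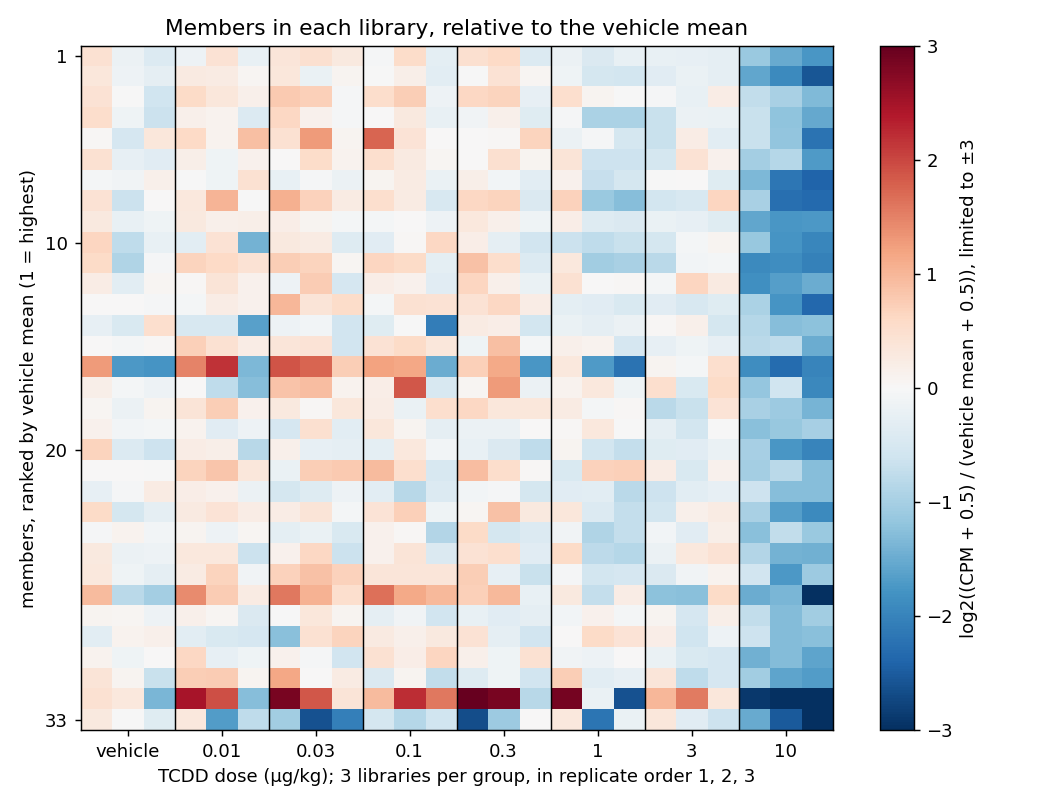
Each row is 1 of the 33 members, ranked by vehicle mean, and each column 1 of the 24 libraries, grouped by dose with replicates 1 to 3 from left to right; colour is log2 of (CPM + 0.5) over (vehicle mean + 0.5), limited to 3 in either direction. All 10 µg/kg columns are blue in nearly every row, and within the doses from 0.01 to 0.3 µg/kg the third column of a group is often the bluest.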

How the data were processed

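The deposited files held whole-number counts per Ensembl gene ID, raw and 1 table per liver library. Per the submitters' processing notes the tools, listed by name, were cutadapt 1.4.1, DESeq, FastQC 0.11.2, HTSeq 0.6.1, SAMtools 0.1.2 and TopHat 1.4.1; build, annotation and strand setting are not given in the sources used here, so overlapping genes and close copies are uncertain. Rows naming no gene (35.8% to 47.5% of a table) were left out. Plain CPM used the sum of gene rows. Tests used edgeR 4.0.16 (R 4.3.3): filterByExpr, TMM factors of 0.898 to 1.11, glmQLFit and glmQLFTest, Benjamini-Hochberg adjustment over 12496 genes. Comparisons with vehicle and of 10 with 3 µg/kg were fitted on all 24 libraries, those among 0.01 to 1 µg/kg on 15. SE is the log2 fold change over the square root of F. DESeq2 1.42.0 was an alternative. The scripts were tested on simulated data. Members and lists were chosen with earlier results of these data known. The rule for named genes would name more members by symbol; without symbols at most 2 IDs are printed. Replicate numbers were not taken as pairs, and the labels give no pairing. Of 84 same-numbered pairs of libraries in different groups, 42 had a correlation of deviations above 0.1. Pairs of unlike number were not correlated, so these values do not decide whether the numbering can be left out.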

Additional observations from a re-analysis of the deposited data

Results flagged for a closer look

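Alignments that were not unique, which no comparison here uses, made up 32.0% ± 2.85 of a table at 10 µg/kg. They made up 24.1% ± 0.797 in vehicle (SD, n = 3 each). The 10 µg/kg share was thus above the control level in data outside the gene counts.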

How the results depend on the processing

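For 10 µg/kg against vehicle and for each of the doses from 0.01 to 1 µg/kg against vehicle, every setting tried (RLE scaling, DESeq2, other low-count filters, the replicate block, the 2 groups alone, single libraries left out) kept the number of members called within 1.5 times. The number of members was 64 with TMM-scaled and 61 with RLE-scaled CPM, 18 with a limit of 0.4 times vehicle at 10 µg/kg, 16 with a limit of 0.9 at 3 µg/kg, and 26 to 78 with 1 library left out. With the replicate block, 1 member was called for the slope over 0.01 to 1 µg/kg and 4 for 1 µg/kg against the lowest 2 doses, where a fit of all 24 libraries called 0, as did the fit without replicate 3 in every group, a setting chosen after seeing the data. Leaving out single libraries gave 0 to 4 for that comparison, 8 to 23 for 10 against 3 µg/kg (8 without replicate 3 in every group) and 0 to 1 for 3 µg/kg against vehicle. DESeq2 called 1 in the F test. The slope of ENSRNOG00000027024 over 0.01 to 1 µg/kg, 0.023 per dose step, was -0.041 with the replicate block and -0.14 to 0.13 with 1 library left out. Its log2 difference at 1 µg/kg against the lowest 2 doses, -0.33, was -2.98 to 0.23 with 1 library left out. The causes were not tested. Libraries of the same replicate number correlated at -0.245 to 0.397 between groups, and the labels give no pairing. Levels under the floor of 0.190 to 0.254 CPM could not be told from 0.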
